A study of Homo sapiens with 9 samples.

Results

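The MYC, MAX and MXD network was followed here through 10 genes, taken by name from the 60623 genes listed in every library: MYC, MYCL, MAX, MXD1, MXD3, MXD4, MXI1, MNT, MLX and MGA. Each name occurred once. The RNA came from U937, a human monocytic line grown from a histiocytic lymphoma, in 3 stable doxycycline-inducible derivatives. The CTR line held the empty vector. The AE line (clone #4) held the fusion AML1-ETO, which joins RUNX1 to RUNX1T1, and the EG line (clone #14) held ETO2-GLIS2, which joins CBFA2T3 to GLIS2. Each line was sampled at 0, 12 and 48 h of 5 μg/ml doxycycline, and the vector line received the drug as well. With 1 library per line and time and 1 clone per fusion, a difference had no replicate check, and the effect of a fusion cannot be told apart from that of the clone that carried it.

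MYC and MAX, proteins with a basic helix-loop-helix leucine zipper, pair and bind the E-box CACGTG near genes for growth, ribosome production and the cell cycle. MXD1, MXD3, MXD4 and MXI1 compete for MAX and for the same E-boxes and bring the SIN3 histone deacetylase complex to them, and in blood cells a shift from MYC to MXD partners is a known feature of terminal differentiation. MNT is the widely expressed antagonist of the family, MGA pairs with MAX inside a variant polycomb complex, and MLX serves a parallel branch with the glucose-sensing factors MLXIP (MondoA) and MLXIPL (ChREBP).

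Of the 10 genes, 2 passed a 2-fold change within a line, and both did so in the AML1-ETO line at 48 h: MYC fell and the antagonist MXI1 rose. Over all genes tested there 17.3% rose and 11.3% fell, so 1 of 9 tested members in each direction is not above the background. MYC was at 40.0, 27.1 and 21.1 FPKM (reads scaled by exon length and by library total) at 0, 12 and 48 h in the empty vector line, at 35.1, 49.9 and 13.8 FPKM in the AML1-ETO line, and at 27.8, 27.5 and 18.1 FPKM in the ETO2-GLIS2 line. MYC was thus lowest at 48 h in every line, with a peak at 12 h in the AML1-ETO line alone. Summed, the 4 MXD genes gave 24.3, 29.6 and 32.4 FPKM in the empty vector line, 32.5, 42.7 and 66.8 FPKM in the AML1-ETO line, and 30.5, 33.3 and 49.9 FPKM in the ETO2-GLIS2 line.

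The promoters of 3 antagonists that were higher at 48 h in both fusion lines are shown because these genes moved in the direction opposite to MYC. MXI1 and MXD1 were higher at 48 h in the empty vector line too, by 0.72 and 0.41 on the log2 scale. Each promoter is the 250 bases before a RefSeq transcription start on GRCh38.p14, 5′ to 3′ on the strand of the gene. Capitals mark matches to the E-box CACGTG, to the RUNX letters TGTGGT or TGCGGT, and to TGGGGGGT, the core bound by GLIS factors, each searched on both strands. MXI1 has 3 listed starts, of which the first (chr10:110207355-110207604, plus strand) held 1 RUNX match and the second (chr10:110209981-110210230, plus strand) 2 GLIS core matches on the opposite strand that share 1 base. The third, not shown, held none of the 3 motifs. MXD4 (chr4:2262110-2262359, minus strand) held 1 E-box, and MXD1 (chr2:69914859-69915108, plus strand) held none of the 3 motifs.
MXI1, first start: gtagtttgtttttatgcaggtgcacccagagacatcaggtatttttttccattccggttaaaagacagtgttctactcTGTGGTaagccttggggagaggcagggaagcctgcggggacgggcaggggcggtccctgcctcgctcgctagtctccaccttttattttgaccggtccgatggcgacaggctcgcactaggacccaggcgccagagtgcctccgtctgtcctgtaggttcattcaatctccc
MXI1, second start: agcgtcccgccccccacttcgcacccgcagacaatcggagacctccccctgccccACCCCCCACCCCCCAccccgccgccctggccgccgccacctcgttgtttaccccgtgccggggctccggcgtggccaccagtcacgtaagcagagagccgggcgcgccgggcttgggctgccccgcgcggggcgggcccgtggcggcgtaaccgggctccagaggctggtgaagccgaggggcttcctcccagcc
MXD4: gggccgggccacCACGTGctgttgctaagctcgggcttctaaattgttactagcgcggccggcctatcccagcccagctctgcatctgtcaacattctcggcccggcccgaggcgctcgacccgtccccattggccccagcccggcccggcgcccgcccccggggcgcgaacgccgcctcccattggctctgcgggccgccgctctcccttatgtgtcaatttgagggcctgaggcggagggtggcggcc
MXD1: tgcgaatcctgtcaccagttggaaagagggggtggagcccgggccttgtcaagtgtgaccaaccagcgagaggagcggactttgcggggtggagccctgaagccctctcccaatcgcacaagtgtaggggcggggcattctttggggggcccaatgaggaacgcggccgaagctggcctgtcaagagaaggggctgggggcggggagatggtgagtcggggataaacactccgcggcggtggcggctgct

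Over the 14 promoters that the RefSeq table gave for 9 of the 10 genes, 3 held an E-box (MXD4, MNT and MLX), against 6.34% of the 35116 promoters of all genes. A RUNX match was present in 4 (MXI1, MXD3 and 2 starts of MGA), against 16.3% of all promoters. The GLIS core occurred in 1, the second start of MXI1, against 1.33% of all promoters. The E-box of MXD4 began 238 bases before the start, that of MNT 193 bases and that of MLX 50 bases before it. These are matches of letters, and binding was not analysed here. No promoter of MYC was listed.

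The library totals behind the FPKM scaling were 15136404 to 18443647 reads, recovered from the steps of the FPKM values. They are not the numbers of reads sequenced, which the paper lists as larger. Of the construct genes, 3 rose most in the line whose construct holds them. RUNX1T1 was at 0.512, 22.2 and 28.7 FPKM in the AML1-ETO line and at most 0.0240 FPKM in the other 6 libraries. CBFA2T3 rose from 4.10 to 12.6 FPKM and GLIS2 from 2.39 to 8.85 FPKM by 48 h in the ETO2-GLIS2 line. RUNX1 showed no such step, at 17.4, 17.8 and 16.8 FPKM with AML1-ETO, 19.3, 21.9 and 26.2 FPKM with the vector, and 16.6, 19.1 and 25.3 FPKM with ETO2-GLIS2. Of 14 monocytic and myeloid markers, 10 had a mean of at least 1 FPKM. Their summed level ranged from 1495 to 2898 FPKM in 8 libraries and was 405 FPKM in the AML1-ETO library at 48 h. In that line 7 of 10 tested markers fell past 2-fold by 48 h, beside 11.3% of all genes. With ETO2-GLIS2 3 of 10 fell, beside 2.54% of all genes, and 1 rose, beside 10.8%. The 3 were LYZ, ELANE and AZU1, and the sum went from 2752 to 1534 FPKM. LYZ alone went from 1283 to 332 FPKM and ELANE from 491 to 122 FPKM. Of the 10 markers, 6 were above their 0 h level and 4 below, with a median log2 change of 0.05. With the vector 1 of 10 fell, beside 2.99% of all genes, and 1 rose, beside 8.0%. Summed markers of other cell types stayed between 2.01 and 5.87 FPKM, with 8 of 11 listed at 0 in all 9 libraries. The mitochondrial share of FPKM moved with time too, from 23.5% to 15.5% in the empty vector line, 20.9% to 8.82% in the AML1-ETO line and 22.8% to 12.1% in the ETO2-GLIS2 line. Without the mitochondrial genes in the total, the AML1-ETO changes at 48 h were -1.40 instead of -1.35 for MYC and 1.44 instead of 1.5 for MXI1. The part of the marker shift in the results below was not tested.

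**Figure D1:**
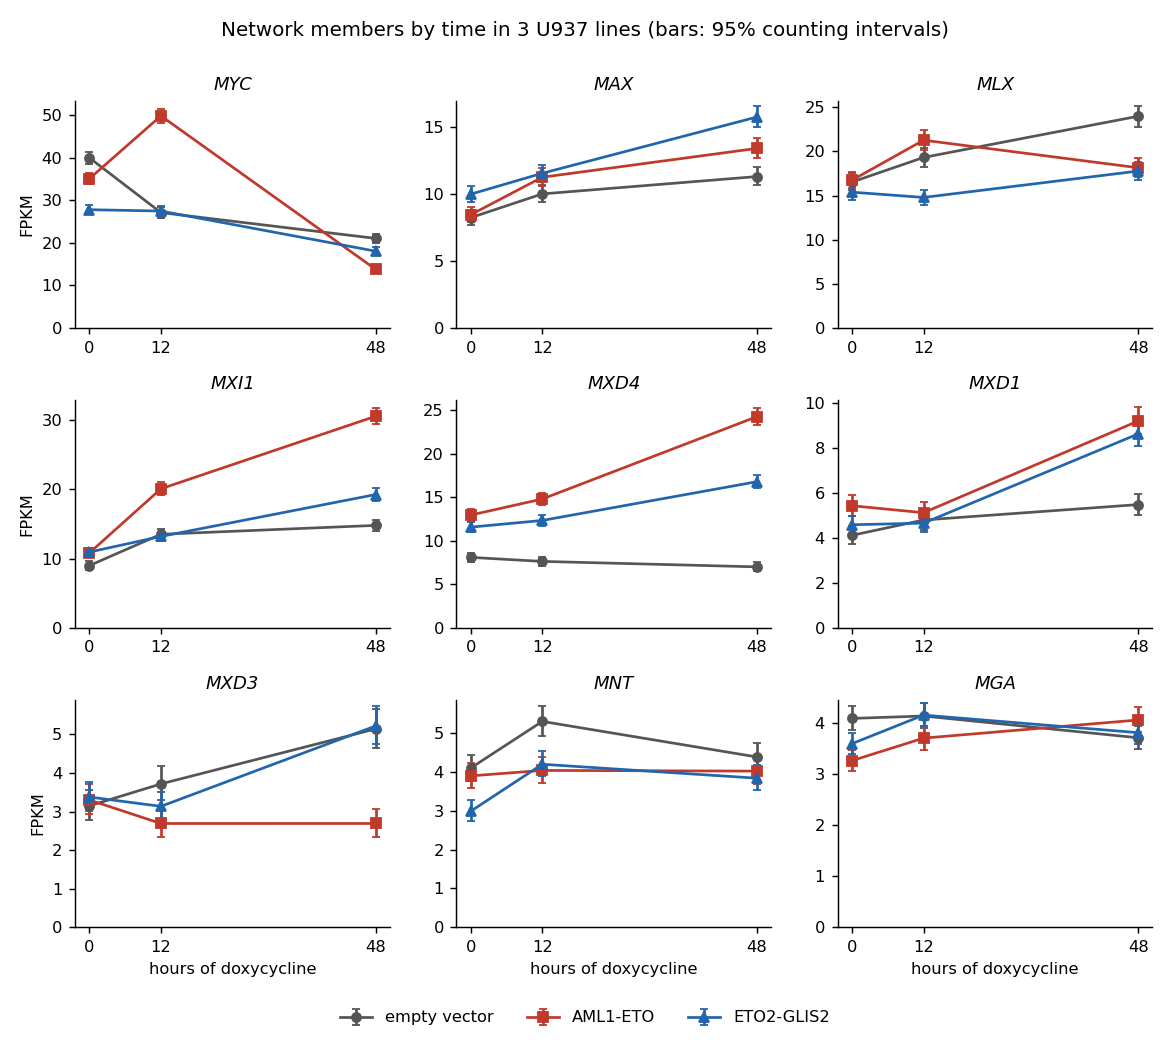
FPKM of 9 network members (vertical axes, each from 0) against hours of doxycycline in the empty vector (grey circles), AML1-ETO (red squares) and ETO2-GLIS2 (blue triangles) lines, 1 library per point, with 95% Poisson counting intervals. With AML1-ETO, MYC peaks at 49.9 FPKM at 12 h and ends at 13.8 FPKM, while MXI1 reaches 30.6 FPKM.

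Of the activators, MYC was the only one expressed. Against 0 h of its own line, its log2 change at 12 h was -0.56 (95% counting interval -0.64 to -0.48) in the empty vector line, 0.51 (0.43 to 0.58) in the AML1-ETO line and -0.02 (-0.10 to 0.07) in the ETO2-GLIS2 line. The 3 intervals did not overlap. At 48 h the change was -0.93 (-1.02 to -0.84) in the empty vector line, -1.35 (-1.45 to -1.24) in the AML1-ETO line and -0.62 (-0.72 to -0.53) in the ETO2-GLIS2 line. So MYC was lower in all 3 lines at 48 h, the vector line included, and the AML1-ETO change exceeded that of the vector by -0.42 on the log2 scale. Within the AML1-ETO line from 12 to 48 h the log2 change was -1.85 (-1.96 to -1.75), from the highest of the 9 MYC values to the lowest, a span of 3.61-fold. In the order of the 9 libraries, only the neighbours ETO2-GLIS2 at 0 and 12 h, and ETO2-GLIS2 and empty vector at 12 h, could not be separated by counting error. These intervals, from 963 to 3529 MYC reads per library, cover counting error only, since each condition had 1 library. They may be too narrow even for that, because PCR copies were not marked by molecular identifiers and reads may repeat a molecule. In RNA from a culture, fewer expressing cells and less RNA per cell cannot be told apart.

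MYCL, a paralogue with more restricted expression, was listed at 0 in all 6 libraries of the empty vector and ETO2-GLIS2 lines and at 0.0357, 0.0768 and 0.0130 FPKM in the AML1-ETO line, on 3, 6 and 1 reads. It was below the filter of 1 FPKM in every comparison. MYCN, the third MYC gene, was listed at 0 in all 9 libraries.

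At 48 h in the AML1-ETO line, 1 of the 9 members that passed the filter was more than 2-fold higher and 1 was more than 2-fold lower. The shares above were of 12030 genes. At 12 h in that line no member passed 2-fold, against 6.57% of genes higher and 2.39% lower. No member passed in the ETO2-GLIS2 line, where 3.03% of genes were higher and 1.46% lower at 12 h, and 10.8% and 2.54% at 48 h. The empty vector line gave none either, against 5.64% and 1.88% of genes at 12 h and 8.0% and 2.99% at 48 h. The MYC value of that line at 48 h passed 2-fold after rescaling to the median ratio of the libraries. The median log2 change of the 9 members at 48 h was 0.41, 0.31 and 0.54 in the empty vector, AML1-ETO and ETO2-GLIS2 lines, beside 0.16, 0.22 and 0.16 over all genes tested.

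MAX, the obligate partner of both arms, was at 8.24, 10.0 and 11.3 FPKM in the empty vector line, 8.46, 11.3 and 13.4 FPKM in the AML1-ETO line, and 10.0, 11.6 and 15.8 FPKM in the ETO2-GLIS2 line. It was higher at each later time in all 3 lines. Its log2 changes at 48 h were 0.46 (0.33 to 0.59), 0.66 (0.54 to 0.79) and 0.66 (0.55 to 0.77), with intervals that overlap between the lines. Since MAX was higher as MYC was lower, the ratio of MYC to MAX FPKM went from 4.85 to 1.86 in the empty vector line, from 4.15 to 1.03 in the AML1-ETO line and from 2.78 to 1.15 in the ETO2-GLIS2 line over the 48 h. At 12 h it was 4.43 with AML1-ETO and 2.71 with the vector.

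MXI1 (chromosome 10, 110207605 to 110287365 on GRCh38.p14) was the most abundant MXD gene at 12 and 48 h in all 3 lines. Its level was 8.98, 13.5 and 14.8 FPKM in the empty vector line, 10.8, 20.1 and 30.6 FPKM in the AML1-ETO line, and 10.9, 13.2 and 19.3 FPKM in the ETO2-GLIS2 line. All 3 lines were thus higher at 12 h and higher again at 48 h, and the AML1-ETO line stood above the others at both times. The log2 change of MXI1 at 12 h was 0.59 (0.46 to 0.72), 0.89 (0.78 to 1.0) and 0.27 (0.16 to 0.38) in the empty vector, AML1-ETO and ETO2-GLIS2 lines. At 48 h it was 0.72 (0.60 to 0.84), 1.5 (1.4 to 1.6) and 0.82 (0.71 to 0.92). Less the vector line, the 48 h change was 0.78 with AML1-ETO and 0.10 with ETO2-GLIS2, so that most of the ETO2-GLIS2 change was also present with the empty vector.

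MXD4 (chromosome 4, 2247432 to 2262109) was the member with the widest difference between the fusion lines and the vector at 48 h. It was at 8.08, 7.61 and 6.99 FPKM in the empty vector line, 12.9, 14.8 and 24.3 FPKM in the AML1-ETO line, and 11.6, 12.3 and 16.8 FPKM in the ETO2-GLIS2 line. All 6 fusion libraries lay above the 3 vector libraries, and the difference was already there before the drug. At 0 h the log2 difference from the vector line was 0.68 (0.56 to 0.80) in the AML1-ETO line and 0.52 (0.40 to 0.64) in the ETO2-GLIS2 line. By 48 h it had grown to 1.8 (1.68 to 1.92) and 1.26 (1.14 to 1.39). Within lines the 48 h change was -0.21 (-0.35 to -0.07) with the vector, 0.91 (0.81 to 1.0) with AML1-ETO and 0.54 (0.44 to 0.64) with ETO2-GLIS2. The 0 h difference includes any difference between clones. RUNX1T1 at 0.512 FPKM in the AML1-ETO line at 0 h was above the 0 listed for the vector line at that time. In the ETO2-GLIS2 line at 0 h CBFA2T3 and GLIS2 were at 4.10 and 2.39 FPKM, below the 4.75 and 4.76 FPKM of the vector line. A part of fusion RNA in the 0 h difference was not tested.

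MXD1 (chromosome 2, 69915109 to 69942945), the first described antagonist of the family, was at 4.11, 4.80 and 5.48 FPKM in the empty vector line, 5.43, 5.12 and 9.21 FPKM in the AML1-ETO line, and 4.58, 4.66 and 8.63 FPKM in the ETO2-GLIS2 line. The 2 fusion libraries at 48 h stood apart from the other 7, which ran from 4.11 to 5.48 FPKM, and the fusion libraries at 48 h did not differ beyond counting error. In the fusion lines nearly all of the difference came after 12 h. At 12 h the log2 change was -0.08 (-0.26 to 0.09) with AML1-ETO and 0.02 (-0.15 to 0.20) with ETO2-GLIS2. At 48 h it was 0.76 (0.61 to 0.92) and 0.91 (0.76 to 1.07), beside 0.41 (0.23 to 0.60) with the vector.

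MXD3 (chromosome 5, 177305499 to 177312752), an MXD gene that is known to be expressed in cycling cells, followed another course. It was at 3.15, 3.72 and 5.14 FPKM in the empty vector line, 3.30, 2.69 and 2.69 FPKM in the AML1-ETO line, and 3.38, 3.14 and 5.22 FPKM in the ETO2-GLIS2 line. It was higher at 48 h in the vector and ETO2-GLIS2 lines and lower at both times with AML1-ETO. The log2 change at 48 h was 0.71 (0.48 to 0.94), -0.29 (-0.56 to -0.03) and 0.63 (0.42 to 0.84) in the vector, AML1-ETO and ETO2-GLIS2 lines. Of the MXD3 exon bases, 19.5% are shared with RAB24 on the same strand and 24.2% lie opposite PRELID1, which leaves its level uncertain.

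The balance of the MXD genes changed along with their sum. In the AML1-ETO line, MXI1 made up 33.3% of summed MXD FPKM at 0 h and 45.8% at 48 h, while MXD3 went from 10.2% to 4.03%. In the empty vector line, the share of MXD4 went from 33.2% to 21.6% and that of MXI1 from 36.9% to 45.7%. The shares in the ETO2-GLIS2 line moved less, with MXI1 at 35.9% and 38.6% and MXD4 at 38.0% and 33.6%.

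The ratio of summed MXD to MYC FPKM, in which the library total cancels, was 0.608, 1.09 and 1.54 at 0, 12 and 48 h in the empty vector line. It was 0.925, 0.856 and 4.84 in the AML1-ETO line, and 1.10, 1.21 and 2.76 in the ETO2-GLIS2 line. All 3 lines ended above their start, the AML1-ETO line highest. Between 0 and 48 h the ratio grew 2.53-fold in the vector line, 5.23-fold with AML1-ETO and 2.52-fold with ETO2-GLIS2, as log2 1.34 (1.22 to 1.46), 2.39 (2.26 to 2.51) and 1.34 (1.22 to 1.45). At 12 h its log2 change was 0.85 (0.73 to 0.96), -0.11 (-0.21 to -0.01) and 0.15 (0.04 to 0.25), so it moved early with the vector and late in both fusion lines. In the AML1-ETO line the MXD sum grew 2.06-fold by 48 h and MYC was at 0.393 of its 0 h level. At 0 h the ratio of both fusion lines was above that of the vector line, where MYC was highest of the 3 and the MXD sum lowest. The ratio is one of RNA, and protein was not measured here.

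**Figure D2:**
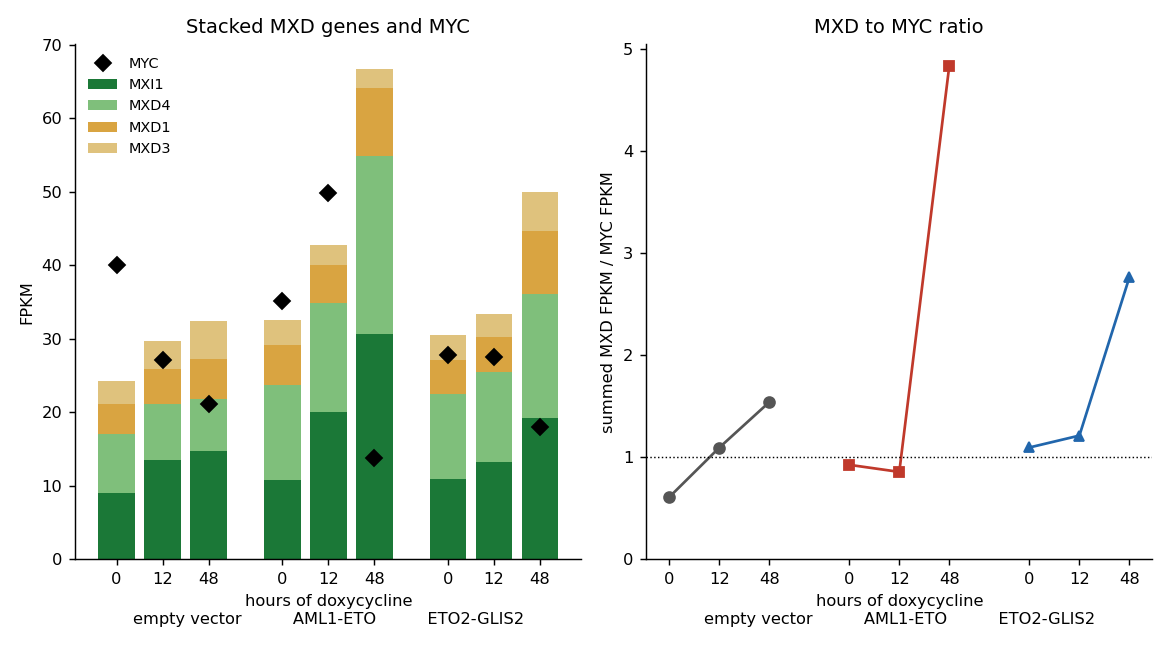
Left, FPKM of MXI1, MXD4, MXD1 and MXD3 stacked in each library, with MYC as black diamonds; right, the ratio of the stacked sum to MYC FPKM, with 1 as a dotted line; both by hours of doxycycline in each line. The AML1-ETO ratio is 0.925, 0.856 and 4.84, the highest of the 9 values being at 48 h.

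MNT, MGA and MLX spanned 1.77-fold, 1.27-fold and 1.62-fold over the 9 libraries, beside 3.47-fold for MXD4, 3.41-fold for MXI1 and 2.24-fold for MXD1. With the 9 libraries put in order of level, the neighbours that counting error could not separate were 3 of 8 pairs for MXI1, 4 for MXD4 and MAX, 6 for MNT and MLX, and 7 for MXD1, MXD3 and MGA. MNT (chromosome 17, 2384073 to 2401060) was at 4.11, 5.31 and 4.39 FPKM in the empty vector line, 3.90, 4.04 and 4.03 FPKM in the AML1-ETO line, and 2.99, 4.2 and 3.84 FPKM in the ETO2-GLIS2 line. In the AML1-ETO line its log2 changes of 0.05 and 0.04 had intervals that held 0, and the change of 0.36 (0.18 to 0.54) in the ETO2-GLIS2 line began from the lowest of the 9 values. MGA (chromosome 15, 41621224 to 41769940) ran from 3.26 to 4.15 FPKM, with log2 changes at 48 h of -0.14 (-0.26 to -0.02), 0.31 (0.19 to 0.44) and 0.08 (-0.04 to 0.20). In both fusion lines the 48 h changes of MNT and MGA were smaller than those of MXI1, MXD4 and MXD1. With a median of 0.16 to 0.22 over all genes at 48 h, the sign of the changes of MNT turned under rescaling with the vector at 48 h and with AML1-ETO at both times, and that of MGA with the vector at 12 h and with ETO2-GLIS2 at 48 h.

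MLX (chromosome 17, 42567100 to 42573203) was at 16.5, 19.3 and 24.0 FPKM in the empty vector line, 16.7, 21.3 and 18.1 FPKM in the AML1-ETO line, and 15.4, 14.8 and 17.8 FPKM in the ETO2-GLIS2 line. Its highest value was that of the vector line at 48 h, where the log2 change was 0.54 (0.43 to 0.65), beside 0.21 (0.09 to 0.32) with ETO2-GLIS2. The change of 0.12 with AML1-ETO at 48 h turned sign under rescaling. On the opposite strand, annotated exons cover 18.2% of the MLX exon bases (PSMC3IP), 16.1% of those of MAX and 12.2% of those of MNT. Its partner MLXIP ran from 9.47 to 14.4 FPKM, with log2 changes at 48 h of 0.16 (0.09 to 0.23) with AML1-ETO and 0.45 (0.37 to 0.53) with ETO2-GLIS2, while MLXIPL was at most 0.0136 FPKM. TXNIP, a target of MondoA that restrains glucose uptake, was at 30.7, 39.3 and 98.5 FPKM in the AML1-ETO line and rose there by 1.68 (1.60 to 1.76). KLF10, listed with it, fell in that line from 8.87 to 4.29 and 0.482 FPKM, a log2 change of -4.18 (-4.81 to -3.66). The 2 tested genes of that list thus moved in opposite directions, and ARRDC4, the other one, was listed at 0 throughout.

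Of 42 genes chosen as textbook targets that MYC activates, 39 were tested in the AML1-ETO line. At 12 h, 34 of the 39 were above their 0 h level, with a median log2 change of 0.35, beside 66.8% of all genes and a median of 0.18, and none passed 2-fold. In the ETO2-GLIS2 line, where MYC at 12 h did not differ from 0 h beyond counting error, 35 of 40 were also above 0 h with a median of 0.30, beside 67.4% and 0.11 over all genes. In the empty vector line, where MYC was lower, 22 of 39 were above, with a median of 0.03 beside 68.0% and 0.14. By 48 h the medians were -0.02, -0.34 and -0.08 in the vector, AML1-ETO and ETO2-GLIS2 lines, and 19 of 40, 13 of 39 and 14 of 39 were above their 0 h level, beside 63.2%, 60.9% and 63.8% of all genes. Of their 49 promoters in the RefSeq table, 13 held an E-box (26.5%, against 6.34% of all promoters).

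At 48 h in the AML1-ETO line 3 of the 39 activated targets fell past 2-fold and 1 rose, beside 11.3% and 17.3% of all genes, so neither count is above the background. E2F2, a transcription factor of S-phase entry, was at 8.19, 6.73 and 1.66 FPKM there, a log2 change of -2.30 (-2.58 to -2.04), and at 6.50, 11.4 and 11.1 FPKM in the ETO2-GLIS2 line. Its relative E2F1 was at 13.7, 15.8 and 4.81 FPKM with AML1-ETO, a change of -1.50 (-1.75 to -1.27), beside -0.83 (-1.02 to -0.64) with ETO2-GLIS2. PTMA, the abundant chromatin protein prothymosin alpha, was at 561, 513 and 230 FPKM with AML1-ETO, and its 48 h change was -1.29, -0.76 and -0.59 in the AML1-ETO, ETO2-GLIS2 and vector lines. The riser was HSPE1, a mitochondrial chaperone on few reads, named after its value was seen, at 1.10 (0.51 to 1.72). TFRC, the transferrin receptor, had a change of 0.79 with AML1-ETO and 0.67 with ETO2-GLIS2 and the same 0.67 with the vector. CCND2, a D-type cyclin, had changes of 0.74 and 0.65 in the fusion lines, and NIP7, a ribosome biogenesis factor, 0.31 with AML1-ETO at 48 h. Less the vector change, these were 0.33 and 0.24 for CCND2 and -0.28 for NIP7. In the ETO2-GLIS2 line FBL, the rRNA methyltransferase fibrillarin, was at 65.4, 56.9 and 40.9 FPKM, a change of -0.68, or -0.30 less the vector. No target passed 2-fold there, and in the vector line TERT alone did, named after its value was seen, from 1.95 to 0.595 FPKM.

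Of 7 tested targets that MYC is known to repress, 6 were above 0 h at 48 h with the vector and 6 with ETO2-GLIS2. The medians were 0.37 and 0.34, beside 0.16 over all genes in both lines. With AML1-ETO at 48 h they moved past 2-fold in both directions. Of 7 tested there, 2 rose and 2 fell, beside 17.3% and 11.3% of all genes. In that line 5 of the 7 were above 0 h, with a median of 0.63 beside 0.22 over all genes. The risers were CDKN2B, a CDK4 and CDK6 inhibitor, at 1.58 (1.29 to 1.90) and the stress gene GADD45A at 1.03 (0.40 to 1.69), both named after their values were seen. CLU, the chaperone clusterin, fell from 22.9 to 6.17 FPKM and NDRG1, a stress-response gene, from 14.8 to 6.32 FPKM. CDKN1A, the cyclin-dependent kinase inhibitor p21, was at 19.0, 13.2 and 33.0 FPKM with AML1-ETO, so that it was lowest at 12 h, when MYC was highest, and highest at 48 h. In the ETO2-GLIS2 line it was at 15.3, 11.4 and 24.1 FPKM, and with the vector at 12.6, 14.3 and 25.2 FPKM. Its relative CDKN1B (p27) had a change of 0.63 at 48 h with AML1-ETO, and FTH1, the ferritin heavy chain, rose by 1.03 with ETO2-GLIS2, beside 0.72 with the vector, although its many pseudogenes make its count uncertain.

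The proliferation genes were low alongside MYC at 48 h in the AML1-ETO line, where 8 of 11 fell past 2-fold (11.3% of all genes did). With the vector 1 of 11 fell, beside 2.99% of all genes, and with ETO2-GLIS2 0 of 11, beside 2.54%. Their summed level in the AML1-ETO line was 612, 560 and 252 FPKM at 0, 12 and 48 h. MCM2, a subunit of the replicative helicase, went from 54.3 to 45.5 and 12.2 FPKM and PCNA, the sliding clamp, from 164 to 139 and 41.8 FPKM. MCM2 was also the gene that fell past 2-fold with the vector, from 77.5 to 36.0 FPKM by 48 h. With ETO2-GLIS2 it went from 34.8 to 18.4 FPKM. At 12 h with AML1-ETO, when MYC was at its highest, neither MCM2 nor PCNA was above its 0 h level. Of the 11 genes, 4 were above 0 h at that time and 7 below, with CCNB1, named outside the rule given below, going from 69.8 to 92.2 FPKM. BUB1, a mitotic checkpoint kinase, fell by 1.61 on the log2 scale by 48 h, and MKI67 went from 67.2 to 25.3 FPKM.

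Of 22 cofactors of MYC and factors of its turnover, 2 fell past 2-fold at 48 h in the AML1-ETO line, none rose, and none passed in the other lines. With 11.3% of all genes lower and 17.3% higher in the AML1-ETO comparison, these counts are not above the background. PIM1, a kinase that phosphorylates and stabilises MYC, was at 17.2, 7.68 and 6.88 FPKM with AML1-ETO but at 19.0, 25.3 and 34.4 FPKM with the vector and 16.4, 17.3 and 30.3 FPKM with ETO2-GLIS2. It was therefore lower at 12 h, when MYC RNA was highest. USP28, a deubiquitinase that spares MYC from FBXW7, was at 8.4, 4.52 and 2.26 FPKM with AML1-ETO, a change of -1.89 (-2.12 to -1.67), beside -0.20 (-0.34 to -0.07) with the vector. RUVBL2, an ATPase of MYC-bound complexes, was lower at 48 h in all 3 lines by log2 changes of -0.57, -1.0 and -0.81 in the vector, AML1-ETO and ETO2-GLIS2 lines, and ACTL6A, an actin-like subunit of such complexes, had -0.54 with ETO2-GLIS2. On the other side stood KAT2A, an acetyltransferase, at 0.86 with AML1-ETO and 0.61 with ETO2-GLIS2, and ZBTB17 (MIZ1), through which MYC represses, at 0.86 with AML1-ETO.

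The SIN3 complex, through which the MXD proteins repress, had 16 genes tested, of which 1 rose in the AML1-ETO line at 48 h (17.3% of all genes did), none fell (11.3%), and none passed in the other lines. The riser was SIN3B, a scaffold subunit, at 7.80, 10.0 and 16.9 FPKM there and at 6.48, 8.68 and 12.1 FPKM in the ETO2-GLIS2 line, with changes of 1.12 (1.02 to 1.22) and 0.90 (0.79 to 1.02), beside 0.16 (0.05 to 0.27) with the vector. The fusion lines were thus both above the vector line in the change of this subunit. HDAC1, a catalytic subunit, was at 78.8, 97.6 and 143 FPKM with AML1-ETO and at 69.4, 63.9 and 67.2 FPKM with ETO2-GLIS2. SAP30, a small adaptor subunit, had a change of -0.47 with AML1-ETO beside 0.91 with the vector, from 12.3 to 23.1 FPKM. SUDS3 had 0.71 with AML1-ETO, and SAP130 at 0.36 and ING2 at -0.55 with ETO2-GLIS2. Of 11 genes of the polycomb complex that holds MGA, 10 were tested with AML1-ETO and 11 in the other lines at 48 h, and none passed 2-fold. In the AML1-ETO line E2F6, its DNA-binding subunit, had a change of 0.85, the ubiquitin ligases RNF2 and RING1 0.76 and 0.75, and the heterochromatin protein CBX3 -0.57.

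The genes whose levels ran closest to 3 members across the 9 libraries were found by Pearson correlation of log2(FPKM + 0.01) over 7227 genes with a mean of at least 5 FPKM. For MYC they were ANKS6, PYGL, SRPK1, MRPS5 and SERBP1, with r from 0.96 to 0.97. ANKS6 was at 7.15, 9.88 and 3.06 FPKM in the AML1-ETO line, with the 12 h peak of MYC. For MXI1 they were RFXANK, CYP2R1, GSTK1, EXOC1 and RXRB, with r from 0.98 to 0.99, and for MXD1 CCDC69, USF2, SLC37A1, KIAA1109 and RIT1, with r from 0.94 to 0.97. Among the members, MYC had r = -0.77 with MXD1, -0.69 with MAX, -0.57 with MXI1, -0.37 with MXD4 and -0.06 with MLX, and MXD1 had r = 0.83 with MXI1. The 9 points share lines, times and the scaling by library total, so these values describe the libraries only.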

How the data were processed

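RNA-seq of 9 libraries, 1 per line and time, was analysed. According to the methods and the submitters' notes, the authors used HISAT2 (2.0.5) to align reads to hg38, SAMtools (1.7) to handle them and HTSeq (0.9.1) to count them per gene, and deposited FPKM for each gene. The annotation version is not given in the sources used here.

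Groups came from the sample titles. From the deposited FPKM, log2(FPKM + 0.01) was compared within each line, and a gene was called past 2-fold with a mean of at least 1 FPKM in the 2 libraries. There was no test and no p-value, since each condition had 1 library. Whole reads were recovered for 23852 of 23889 genes above 0 in at least 3 libraries (tolerance 0.02 reads), which gave exact 95% Clopper-Pearson intervals of read ratios, and intervals of summed ratios by the delta method. Recovery was tested on simulated data. Members and lists were chosen with earlier results of these data known. Besides the members and construct genes, the genes named were, per list, the 3 highest and 3 lowest changes at 48 h in each fusion line with a mean of at least 5 FPKM, of which the most extreme are described. The 5 genes most like MYC, MXD1 and MXI1 were named too. CCNB1, HSPE1, TERT, CDKN2B and GADD45A, and MYCN, MLXIPL and ARRDC4 at or near 0, were named outside these rules. Coordinates and promoters came from RefSeq (GRCh38.p14), and exon overlaps from an annotation on GRCh37 without its coordinates. Alternatives covered scaling, pseudocount, filter, threshold and reference. Python (3.11.15), numpy (2.4.6), pandas (2.3.3), scipy (1.17.1) and matplotlib (3.10.9) were used. Other experiments of the study were not analysed here.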

Additional observations from a re-analysis of the deposited data

Results flagged for a closer look

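No network member kept one sign of change with AML1-ETO and the opposite sign with ETO2-GLIS2 at both 12 and 48 h. Among the named genes around the network 7 did so. Those genes were chosen by their changes at 48 h in each fusion line. The share of all genes that did so was not computed, so the 7 cannot be set against a background. With 1 library per condition the difference was not tested. The log2 change at 48 h with AML1-ETO minus that with ETO2-GLIS2 was -4.75 for ITGB2 (an integrin subunit of myeloid cells), -3.06 for E2F2, -2.20 for PIM1, -1.51 for NDRG1, -0.56 for RYBP (a polycomb subunit), -0.33 for BRMS1 (a SIN3-associated subunit) and 0.91 for HDAC1. PIM1 changed by -1.16 and -1.32 at 12 and 48 h with AML1-ETO and by 0.08 and 0.88 with ETO2-GLIS2. The counting interval held 0 for some of these values, as for PIM1 (-0.05 to 0.21) and NDRG1 (-0.03 to 0.14) at 12 h with ETO2-GLIS2. Under rescaling by the median ratio 3 of the 7 (E2F2, HDAC1 and ITGB2) kept opposite signs and 4 did not: at 12 h with ETO2-GLIS2 the change became -0.04 for PIM1, -0.06 for NDRG1 and -0.07 for RYBP, and at 48 h -0.04 for BRMS1. Before rescaling, HDAC1 with ETO2-GLIS2 at 48 h was at -0.05 and ITGB2 with AML1-ETO at 12 h at -0.01, both close to 0. No counting interval was available for ITGB2.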

How the results depend on the processing

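With 1 library per condition, no result could be repeated without a replicate, and the intervals hold counting error only. No paired analysis was possible because the result comes from no test. In the AML1-ETO line at 48 h, the count of 2 members past 2-fold (MXI1 higher, MYC lower) was the same with a pseudocount of 1 FPKM, a mean of at least 5 FPKM, no filter, rescaling by the median ratio, and rescaling without the mitochondrial genome, an alternative added after seeing the data. It was 1 with the vector change subtracted (MXD4), 4 against 0 h of the vector line (MXD1, MXD4 and MXI1 higher, MYC lower), 1 against 12 h (MYC) and 5 at a threshold of 1.5-fold. At 12 h in that line the count of 0 became 1 with the vector change subtracted (MYC, higher by 1.07), 1 against 0 h of the vector line (MXI1) and 1 at 1.5-fold (MXI1). In the ETO2-GLIS2 line at 48 h the count of 0 became 4 against 0 h of the vector line and 5 at 1.5-fold. In the vector line the count of 0 became 1 (MXI1) at 12 h and 3 (MXD3, MXI1 and MYC) at 48 h at 1.5-fold, and 1 (MYC) at 48 h under both rescalings. The log2 change of the MXD to MYC ratio was 2.26 with MNT and MGA added in the AML1-ETO line, against 2.39. At 12 h it was -0.11 there, the opposite sign, 0.85 in the vector line and 0.15 in the ETO2-GLIS2 line. Rescaling by the median ratio shifted all log2 changes by -0.12 to -0.17 and took the share of higher among called genes from 60.4% to 49.1% in the AML1-ETO line at 48 h, 73.3% to 57.8% at 12 h, 80.9% to 68.9% and 67.5% to 56.4% in the ETO2-GLIS2 line at 48 and 12 h, and 72.8% to 56.8% and 75.0% to 63.7% in the vector line. Of 60 member changes, 38 moved outside their counting interval under that rescaling and none with a pseudocount of 1 FPKM. No called member changed sign under either.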
